A study of Mus musculus with 2 samples.

Results

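Sialic acid genes were compared between marginal zone and follicular B cells of the mouse spleen, on 2 single-channel Affymetrix arrays. The set holds 9 genes for the synthesis, modification, transfer and removal of sialic acid and for the B cell siglecs, chosen by symbol: Gne, Nans, Cmas, Cmah, St6gal1, Neu1, Siae, Cd22 and Siglecg. Every probe set that the platform annotation ties to one of these genes alone was taken, which gave 16 of 22626 probe sets, for 8 of the 9 genes. No probe set was matched to Siglecg, which is not analysed here. The marginal zone array was made from wild-type cells with intermediate CD23 and high CD21, and the follicular array from wild-type cells with high CD23 and intermediate CD21. Both came from spleens of 3 female C57BL/6 mice, were enriched with beads against B220 and were pooled after sorting, and the labels give no age and do not say whether the same mice served both sorts. With 1 array per population there is no replicate error, so no test was made and differences are described by their size.

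Sialic acids are sugars at the outer ends of glycan chains on cell surfaces. They are built in the cytosol, activated in the nucleus with CMP and attached in the Golgi by sialyltransferases, each of which makes a set linkage. CD22 and Siglec-G are inhibitory receptors of B cells that bind sialic acids, also those on the B cell itself, and recruit phosphatases that dampen signals of the antigen receptor. Mouse CD22 binds best to N-glycolylneuraminic acid in the linkage made by ST6GAL1.

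Values are MAS5 signals, an intensity that combines the probes of a probe set, scaled so that both arrays have the same trimmed mean. Signals under 12.7, the median over both scaled arrays, cannot be ordered with confidence, so 12.7 served as a floor. A probe set is called measured where its higher signal exceeded the floor. That held for 12 of the 16 probe sets, against 12847 of 22626 over the whole table. By gene it held for 7 of the 8 members with a probe set, against 7695 of 12393 genes with one. Ratios are log2 of marginal zone over follicular signal after lower values were raised to the floor, and a fold against a signal under the floor is written "at least". Each gene is represented by the brightest of its measured probe sets, by mean log2 signal. Signals of different probe sets are not compared with each other, since probes differ in brightness.

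The hydroxylase and the sialyltransferase of the preferred CD22 ligand had lower signals in marginal zone cells, and the receptor differed little. St6gal1 was 4.35-fold lower and Cmah 2.55-fold lower in marginal zone than in follicular B cells. Cmas, which acts before both, lay on the other side, at 1.77-fold higher in marginal zone cells. The probe sets of Nans disagreed, with log2 ratios of 0.77 and -0.65, and Gne, Neu1 and Cd22 differed by at most 1.297-fold. Of the 7 measured members, 2 were at least 2-fold lower in marginal zone cells, a size reached by 4.86% of all measured genes (374 of 7695). Higher by 2-fold or more in marginal zone cells were 0 of the 7, against 4.39% of all measured genes. By probe set, 2 of 12 were at least 2-fold apart in either direction, against 9.38% of measured probe sets of 1 gene. The median log2 ratio of the 7 members was -0.12, and that of all measured genes was -0.03. The members thus lay on both sides of no difference. In sorted bulk cells, fewer cells with a transcript and less of it per cell cannot be told apart.

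**Figure D1:**
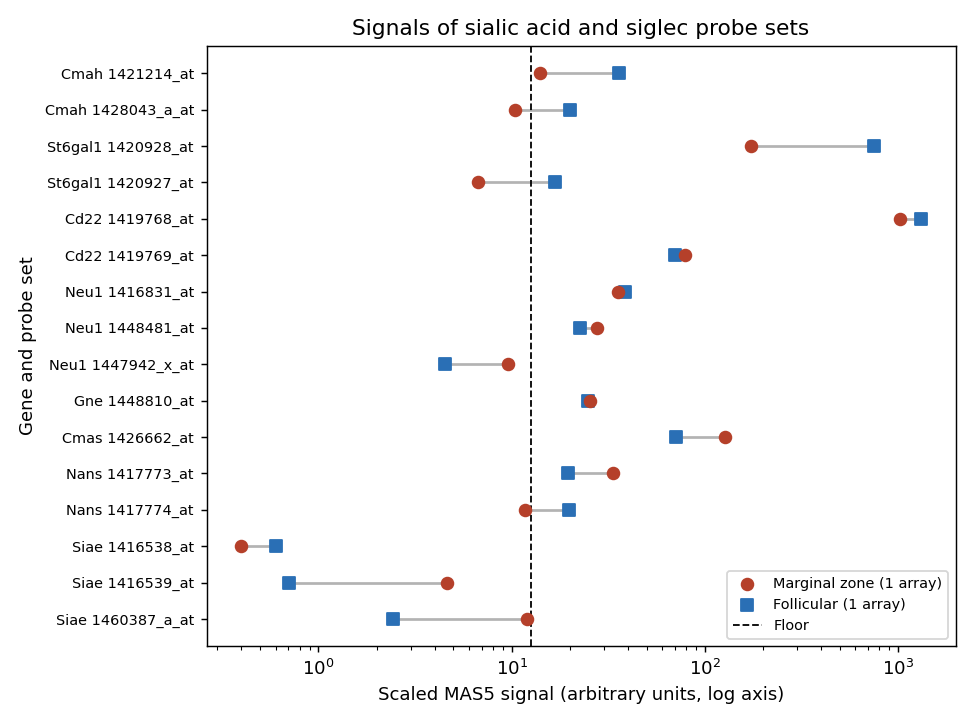
Scaled MAS5 signal (log axis) of the 16 probe sets of the members, with 1 point per array: circles for marginal zone and squares for follicular B cells, joined by a line, and the floor dashed at 12.7. The widest gap above the floor is that of the brighter St6gal1 probe set, at 173.5 in marginal zone and 754.3 in follicular cells; signals under the floor are not ordered.

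The first steps of synthesis were measured at low signal. Gne, the epimerase and kinase that commits UDP-GlcNAc to sialic acid, had 1 probe set, at 25.4 in marginal zone and 24.96 in follicular B cells. That is a log2 ratio of 0.03, close to no difference. Nans, the synthase that joins N-acetylmannosamine phosphate to phosphoenolpyruvate, had a pair of probe sets that disagreed. The brighter was at 33.6 in marginal zone and 19.7 in follicular cells, a log2 ratio of 0.77. The other was at 11.8 in marginal zone cells, under the floor, and at 19.9 in follicular cells, at least 1.57-fold lower in marginal zone cells. No direction can be given for Nans, as both probe sets lie near the floor and their mean log2 ratio was 0.06.

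Cmas, which activates sialic acid with CMP, had a clearer difference. Its single probe set was at 126.6 in marginal zone and 71.3 in follicular B cells, 1.77-fold higher in marginal zone cells. A ratio above that of Cmas was seen in 560 of 7695 measured genes (7.28%), and 13.6% of genes were higher in marginal zone cells by 1.5-fold or more, so this size was common on these arrays.

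Cmah, the hydroxylase that turns CMP-N-acetylneuraminic acid into CMP-N-glycolylneuraminic acid, followed the opposite direction. Its brighter probe set was at 14.1 in marginal zone and 35.9 in follicular B cells, a log2 ratio of -1.35. The other was at 10.4 in marginal zone cells, under the floor, and at 20.0 in follicular cells, at least 1.58-fold lower in marginal zone cells. Both probe sets thus had the lower signal in marginal zone cells. In marginal zone cells the brighter lay just above the floor of 12.7 and the other under it. With the measured genes cut into 4 equal groups by mean log2 signal, Cmah is in the second dimmest, of which 9.72% were at least 2-fold lower in marginal zone cells. The log2 ratios of Cmas and Cmah lay 2.18 apart, so the signal of Cmas relative to Cmah was 4.53-fold higher in marginal zone cells.

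St6gal1, which transfers sialic acid to galactose at the ends of N-glycans and makes the linkage that CD22 binds, had the largest absolute log2 ratio of the 7 measured members. Its brighter probe set was at 173.5 in marginal zone and 754.3 in follicular B cells, a log2 ratio of -2.12. Both signals were far above the floor. The other probe set was at 6.73 in marginal zone cells, under the floor, and at 16.9 in follicular cells, at least 1.33-fold lower in marginal zone cells. Without the floor the log2 ratio of this dim probe set was -1.33, so both had the lower signal in marginal zone cells, but the dim one cannot gauge the size. The 2 probe sets were designed from the same sequence record and are not independent of it. St6gal1 stood at place 17 of 7695 measured genes in the order of log2 ratios, counted from the lowest. Past 4-fold lower were 0.286% of all measured genes and 0.468% (9 of 1924) of the brightest of the 4 groups, to which St6gal1 belongs. Lower by 2-fold or more were 4.16% of that group.

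Next to St6gal1 in the order of ratios stood Pde2a (at least 4.62-fold lower in marginal zone cells), a phosphodiesterase, and Abca1 (4.47-fold), a cholesterol efflux pump, with lower ratios. Zmym1 (4.33-fold), a zinc-finger gene, and Sorl1 (4.28-fold), a sorting receptor, followed with higher ones. With 2 arrays, likeness of pattern is the closeness of a single ratio, so no shared pattern can be read from it.

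**Figure D2:**
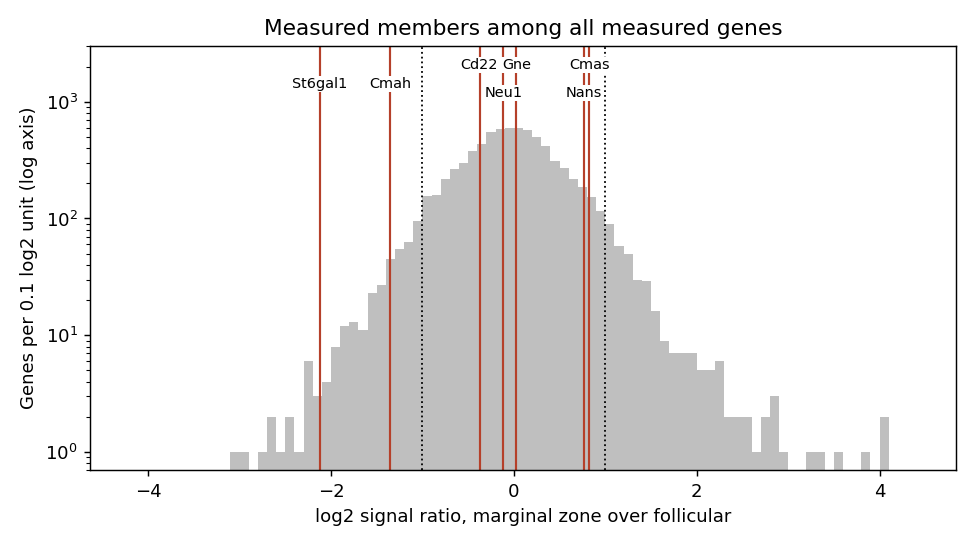
Histogram of the log2 signal ratio of marginal zone over follicular B cells for all 7695 measured genes (log axis for the number of genes), with red lines at the 7 measured members and dotted lines at 2-fold. St6gal1 at -2.12 and Cmah at -1.35 lie left of the 2-fold line, and the other 5 lie between the lines.

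The promoters of the genes past 2-fold, and of the receptor Cd22, are shown because St6gal1 and Cmah were both lower in marginal zone cells and Cd22 was not past 2-fold. RefSeq windows of GRCm38.p6 hold 250 bases before and 50 after an annotated start, and 7 of the 9 members matched by symbol. St6gal1 has 3 annotated starts, Cmah 2 and Cd22 1, and the arrays do not tell which start was in use. Capitals mark matches, on both strands, to letters searched for factors of B cells: CAGGTG for E proteins, GAGGAA for PU.1, CCACCC for Krüppel-like factors, ATGCAAAT, the octamer, and CCCNNGGG for EBF1.
St6gal1 start 1, chr16:23224490-23224789, + strand: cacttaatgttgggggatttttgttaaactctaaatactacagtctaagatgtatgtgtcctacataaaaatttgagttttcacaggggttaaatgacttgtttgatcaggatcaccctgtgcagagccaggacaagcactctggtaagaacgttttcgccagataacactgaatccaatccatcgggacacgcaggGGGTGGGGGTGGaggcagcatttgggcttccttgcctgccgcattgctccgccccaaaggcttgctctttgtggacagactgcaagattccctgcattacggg
St6gal1 start 2, chr16:23225771-23226070, + strand: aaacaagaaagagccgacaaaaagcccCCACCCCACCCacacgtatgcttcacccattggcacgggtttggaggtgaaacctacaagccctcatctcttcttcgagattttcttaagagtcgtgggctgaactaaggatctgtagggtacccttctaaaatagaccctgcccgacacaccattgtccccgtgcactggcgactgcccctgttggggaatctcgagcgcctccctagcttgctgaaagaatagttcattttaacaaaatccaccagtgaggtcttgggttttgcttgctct
St6gal1 start 3, chr16:23290220-23290519, + strand: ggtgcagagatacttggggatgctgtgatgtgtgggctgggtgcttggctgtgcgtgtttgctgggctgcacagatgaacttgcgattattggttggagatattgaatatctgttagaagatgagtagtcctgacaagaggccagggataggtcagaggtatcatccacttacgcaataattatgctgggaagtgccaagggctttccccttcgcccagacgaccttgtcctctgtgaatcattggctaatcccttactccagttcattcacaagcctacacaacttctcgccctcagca
Cmah start 1, chr13:24327154-24327453, + strand: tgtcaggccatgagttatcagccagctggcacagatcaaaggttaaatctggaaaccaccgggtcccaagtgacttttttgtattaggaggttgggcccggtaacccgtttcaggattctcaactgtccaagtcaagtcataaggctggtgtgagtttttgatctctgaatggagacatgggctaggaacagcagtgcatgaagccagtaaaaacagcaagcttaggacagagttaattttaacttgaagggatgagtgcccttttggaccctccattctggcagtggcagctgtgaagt
Cmah start 2, chr13:24414872-24415171, + strand: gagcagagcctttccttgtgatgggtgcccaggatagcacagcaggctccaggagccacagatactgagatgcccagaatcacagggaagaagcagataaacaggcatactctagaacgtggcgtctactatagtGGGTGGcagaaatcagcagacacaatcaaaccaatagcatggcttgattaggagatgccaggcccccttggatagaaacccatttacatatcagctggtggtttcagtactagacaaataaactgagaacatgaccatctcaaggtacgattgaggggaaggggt
Cd22, chr7:30878979-30879278, - strand: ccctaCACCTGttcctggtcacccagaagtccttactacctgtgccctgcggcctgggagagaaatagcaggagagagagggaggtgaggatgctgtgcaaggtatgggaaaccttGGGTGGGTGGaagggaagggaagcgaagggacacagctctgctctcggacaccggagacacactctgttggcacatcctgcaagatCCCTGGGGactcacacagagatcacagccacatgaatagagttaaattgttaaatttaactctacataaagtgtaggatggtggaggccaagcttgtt
The windows of St6gal1 and Cmah held matches to CCACCC alone. There were 2 at each of starts 1 and 2 of St6gal1, a pair that overlaps at start 2, and 1 at start 2 of Cmah. Of all 32851 promoter windows in the table, 31.5% hold CCACCC. The Cd22 window held 1 match to CAGGTG, an overlapping pair of CCACCC and 1 match to the EBF1 letters, which 20.2%, 31.5% and 13.7% of all windows hold. GAGGAA, in 28.3% of all windows, and ATGCAAAT, in 1.74%, were in none of the 6 windows shown. A match describes letters in the window and does not show that a factor binds there. G and C made up 47.3% and 48.7% of the Cmah windows, from 48.0% to 50.7% of the St6gal1 windows and 52.3% of the Cd22 window, against a median of 52.7% over all windows.

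The members that take off sialic acid or its O-acetyl groups, Neu1 and Siae, gave little signal. Neu1, the lysosomal sialidase, had 3 probe sets. The brightest was at 35.6 in marginal zone and 38.6 in follicular B cells, and the next at 27.7 in marginal zone and 22.7 in follicular cells. Their log2 ratios were -0.12 and 0.29, on opposite sides of no difference, and the last probe set was under the floor on both arrays. Siae, the esterase that takes O-acetyl groups off sialic acid and so exposes it to CD22, was under the floor on both arrays by all 3 of its probe sets. They were at 0.396, 4.65 and 11.98 in marginal zone cells and at 0.606, 0.707 and 2.43 in follicular cells. No fold is given for Siae, and these arrays do not show whether its transcript was present.

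The receptor Cd22 was well above the floor in both populations. Its brighter probe set was at 1021 in marginal zone and 1323 in follicular B cells, a log2 ratio of -0.38. The other was at 78.9 in marginal zone and 70.2 in follicular cells, a log2 ratio of 0.17. The probe sets went different ways and were both within 1.297-fold. Their gap of 0.54 on the log2 scale was near the SD of 0.43 between probe sets of 1 gene over the 2622 genes with several measured probe sets.

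By ratios after the floor, no other measured sialyltransferase was 2-fold lower in marginal zone cells. St8sia2 and St8sia5 were under the floor in marginal zone cells alone, at least 1.28-fold and 1.06-fold lower there. St3gal2 and St8sia1 were under it in follicular cells alone, at least 1.17-fold and 1.15-fold higher in marginal zone cells. The sizes of these differences are not known, and 8 more genes with a probe set were under the floor on both arrays. Of 19 listed genes, 17 had a probe set and 9 were measured, of which 2 were higher and 0 lower by 2-fold or more in marginal zone cells. Over all measured genes those shares were 4.39% and 4.86%. The median log2 ratio of the 9 was 0.20, against -0.03 over all measured genes. St3gal6, which adds sialic acid to galactose in another linkage, was at 152.5 in marginal zone and 65.8 in follicular B cells, 2.32-fold higher in marginal zone cells. Its other probe set was at 63.1 in marginal zone and 30.7 in follicular cells, a log2 ratio of 1.04, so both probe sets were past 2-fold in the same direction. St3gal5, which makes the ganglioside GM3, was at 41.96 in marginal zone and 20.6 in follicular cells, 2.04-fold higher by its brighter probe set. Its other probe set, at 14.1 in marginal zone and 15.9 in follicular cells, had a log2 ratio of -0.17. St6galnac4, of O-glycans and gangliosides, had log2 ratios of 0.79 for its brighter and 0.09 for its other probe set. St8sia4, a polysialyltransferase, was at 192.9 in marginal zone and 325.3 in follicular cells, a log2 ratio of -0.75, and was named after its value was seen. By their brightest probe sets the log2 ratios of St3gal6 and St6gal1 lay 3.33 apart. The signal of St3gal6 relative to St6gal1 was thus 10.1-fold higher in marginal zone cells. That size depends on the probe sets used. With the mean of measured probe sets St3gal6 was at 1.13 and St6gal1 at -1.27.

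Of 11 further genes for sialic acid supply, transport and removal, 7 were measured, with 0 past 2-fold after the floor and a median log2 ratio of 0.19. Nanp, the phosphatase that follows Nans, was at 36.8 in marginal zone and 59.2 in follicular B cells, a log2 ratio of -0.69. Casd1, the O-acetyltransferase that Siae opposes, was at 126.2 in marginal zone and 81.5 in follicular cells, 1.55-fold higher in marginal zone cells. Neu3, the plasma membrane sialidase, was at 18.1 in marginal zone and 2.83 in follicular cells, the second under the floor, a difference of at least 1.43-fold whose size is not known. Slc35a1, which carries CMP-sialic acid into the Golgi, had a log2 ratio of 0.46 and was named after its value was seen. Along the route to CMP-sialic acid, Nanp and Cmas thus lay on different sides of no difference.

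Upstream, the hexosamine route to UDP-GlcNAc had 4 of 6 genes measured, with 0 past 2-fold and a median log2 ratio of -0.16. Gnpnat1, an acetyltransferase of that route, was at 19.5 in marginal zone and 28.7 in follicular B cells, a log2 ratio of -0.56, and its other measured probe set went the opposite way, at 0.30. Uap1, which forms UDP-GlcNAc, was at 73.5 in marginal zone and 93.7 in follicular cells, and its 3 measured probe sets lay between -0.83 and -0.35, all lower in marginal zone cells. Nagk, a salvage kinase, was at 14.2 in marginal zone and 10.4 in follicular cells, the second under the floor.

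N-glycan antennae, the chains that end in sialic acid, had 10 of 16 genes measured, with 1 higher and 1 lower by 2-fold or more in marginal zone cells and a median log2 ratio of 0.13. Fut8, which adds the core fucose, was at 39.5 in marginal zone and 10.6 in follicular B cells, a difference of at least 3.12-fold. Mgat1, which starts the first antenna, was at 29.7 in marginal zone and 70.8 in follicular cells, 2.39-fold lower in marginal zone cells. Mgat4b, a branching enzyme, was 1.80-fold higher in marginal zone cells. The probe sets of Mgat2, which starts the second antenna, disagreed, with log2 ratios of 0.25 for the brighter and -1.39 for the other. B4galt1, which adds the galactose that ST6GAL1 uses, was at 352.5 in marginal zone and 395.1 in follicular cells, a log2 ratio of -0.16, and was named after its value was seen.

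**Figure D3:**
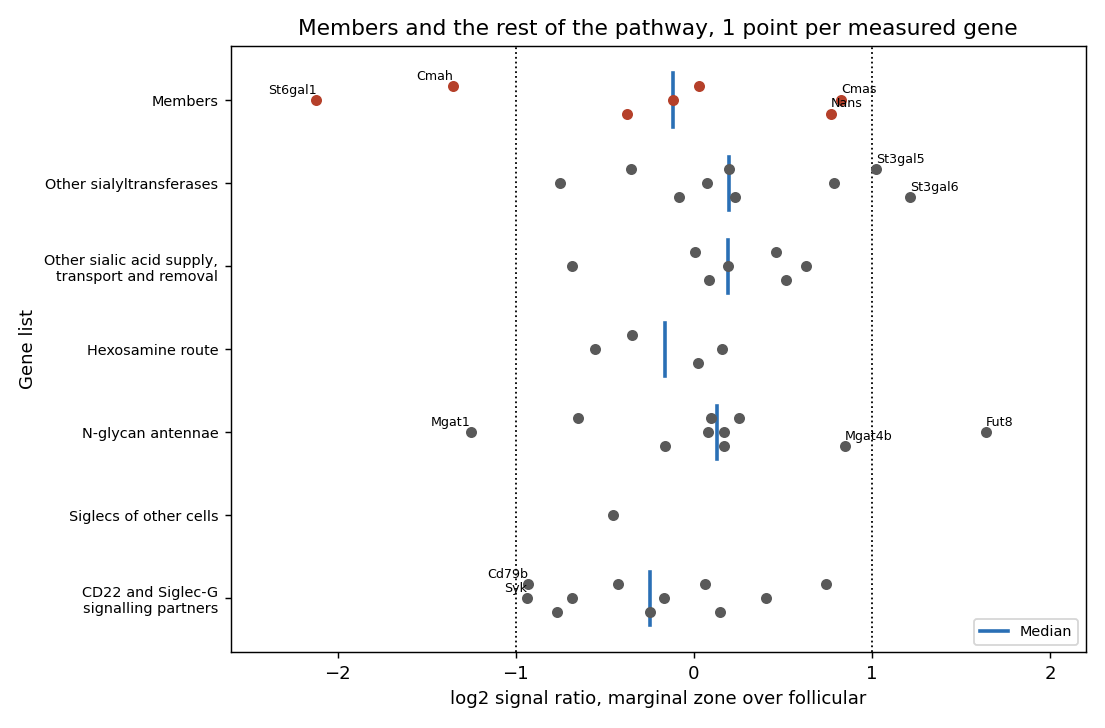
Log2 signal ratio of marginal zone over follicular B cells, 1 point per measured gene, for the members (red) and for 6 lists of the surrounding pathway (grey), with list medians in blue and 2-fold dotted. St6gal1, Cmah and, among the N-glycan genes, Mgat1 lie left of the 2-fold line. Right of it lie St3gal6 and St3gal5 among the other sialyltransferases and Fut8 among the N-glycan genes.

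Signalling partners of CD22 and Siglec-G were all within 2-fold by their brightest probe sets, with 11 of 13 measured and a median log2 ratio of -0.24. The kinase Syk (-0.94) and the receptor chains Cd79b (-0.93) and Cd79a (-0.77) had the largest absolute log2 ratios. Next came Ptpn11, the phosphatase SHP-2, which went the other way at 471.2 in marginal zone and 281.5 in follicular B cells, and its 3 probe sets lay between -0.13 and 0.74. It was named after its value was seen. Ptpn6, the phosphatase SHP-1 that CD22 recruits, was at 107.4 in marginal zone and 172.6 in follicular B cells. Its other probe set was at 72.9 in marginal zone and 195.5 in follicular cells, with log2 ratios of -0.68 and -1.42, so both were lower in marginal zone cells. The adaptor Grb2 had log2 ratios of -0.43 and -1.18, the second past 2-fold. Of 7 siglecs of other cells, 5 had a probe set and Cd33 alone was measured, at 11.9 in marginal zone and 17.4 in follicular cells. Siglec1, the macrophage siglec sialoadhesin, was under the floor on both arrays.

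The labelled cell types matched their defining markers. All 7 B cell markers with a probe set, which include the member Cd22, were measured, and none was under the floor on either array. Of these, Blk, a kinase of the antigen receptor, was past 2-fold, at 392.5 in marginal zone and 178.7 in follicular cells. The sort gate gene Fcer2a, which encodes CD23, was at 89.6 in marginal zone and 726.8 in follicular B cells, and Cr2, which encodes CD21, at 889.9 in marginal zone and 277.9 in follicular cells. Markers of some other cells moved with the comparison. Of 15 macrophage and monocyte markers, 10 were measured and all 10 were brighter on the marginal zone array, with a summed signal over the 15 of 249.2 in marginal zone and 123.6 in follicular cells. Past 2-fold were Csf1r, at 42.5 in marginal zone and 17.3 in follicular cells, and Cd5l, at 26.7 in marginal zone and 11.1 in follicular cells. Marco and Siglec1 were among the 5 under the floor on both arrays. Of 7 T cell markers with a probe set, 2 were measured, Cd3e and Cd4, both above the floor in follicular cells alone, and the summed signal was 27.9 in marginal zone and 42.2 in follicular cells. The 5 plasma cell markers went both ways, with 4 measured. Their summed signal, 723.3 in marginal zone and 499.1 in follicular cells, was mostly that of Xbp1. The sum thus gives no direction for the other markers. Sdc1 was at 4.35 in marginal zone cells, under the floor, and 68.3 in follicular cells. Prdm1 was at 30.9 in marginal zone and 12.7 in follicular cells. Xbp1 was at 659.0 in marginal zone and 396.6 in follicular cells, and the log2 ratios of its 4 probe sets ran from -0.98 up to 0.73. No marker of these lists had a scaled signal of 0 by the probe set summed. The part of these cells in the ratios of St6gal1, Cmah, St3gal5 and St3gal6 was not tested.

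St6gal1 and Cmah stayed lower in marginal zone cells under every alternative setting in which they were measured, but their sizes changed. Both probe sets of each gene had the lower signal in marginal zone cells. The settings for floor and probe sets thus could not turn the direction, and its constancy adds no support. With 2 probe sets per gene, the mean and median rules gave the same value. The log2 ratio of St6gal1 lay between -2.16 and -1.27 over the 10 settings that changed scaling, floor or the rule for probe sets, and was -0.41 with its brighter probe set left out. That of Cmah could be taken under 9 of the 10, since it was under the floor set at the 75th percentile. It was -0.86 with a pseudocount rather than the floor and -0.66 with its brighter probe set left out, both within 2-fold.

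**Figure D4:**
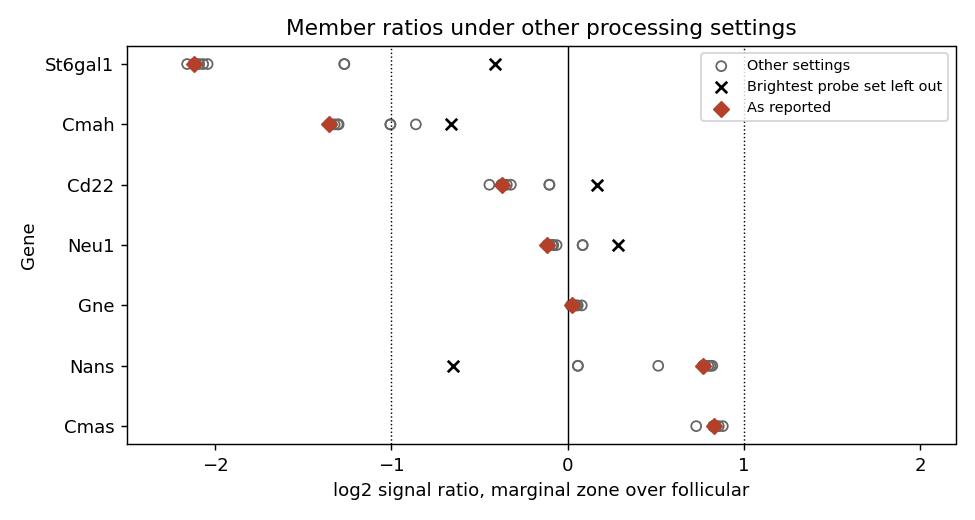
Log2 signal ratio of marginal zone over follicular B cells for the 7 measured members as reported (red diamonds), under 10 other settings of scaling, floor and probe set rule (open circles, fewer where a gene was not measured) and with the brightest probe set left out (crosses); dotted lines mark 2-fold. St6gal1 stays left of the 2-fold line except for the cross at -0.41. The crosses of Nans at -0.65, Cd22 at 0.17 and Neu1 at 0.29 lie on the other side of 0 from the values reported.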

How the data were processed

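Total RNA (100 ng) of each pool was amplified and biotin-labelled, per the labels' protocols. Each deposited value is an intensity, a MAS5 signal per the submitters' processing notes, whose version and scaling target are not stated in the labels. MAS5 corrects each probe by its mismatch probe, so dim signals are noisy. The number of arrays limits the precision.

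Signals were scaled to a common 2% trimmed mean, by 0.990 for marginal zone and 1.01 for follicular cells (Python 3.11.15, pandas 2.3.3), raised to the floor and compared as log2 ratios. Of 22626 probe sets, 20380 had 1 gene, 691 several and 1555 were not listed. Of the probe sets with 1 gene, 20351 had an Entrez identifier in the GRCm38.p6 gene table.

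The members and lists were chosen with earlier results of these data known. Named are all members, and of each pathway list the genes with a measured probe set past 2-fold and its 3 largest ratios. Sort gate genes and markers past 2-fold are named too. Some markers within 2-fold or under the floor, such as Xbp1, Cd3e, Cd4, Marco and Siglec1, are named beside them. Procedures were tested on simulated data in which differences were set into bright probe sets alone. That test does not cover signals near the floor. The 12 other settings run changed scaling, floor, probe set rule and threshold; 1 more, without the brightest probe set, was chosen after seeing the data.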

Additional observations from a re-analysis of the deposited data

How the results depend on the processing

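No paired analysis was possible because each population has 1 array and no test was made. A single value counted as moved when it shifted by more than the SD of 0.43 between probe sets of 1 gene, and a median by more than that SD over the square root of its number of genes. Other scalings (as deposited, equal median, equal 75th percentile, quantile) left every count within 1.5 times and every median and ratio within that spread. The members past 2-fold, 2 as reported and both lower in marginal zone cells, were 1 with the floor at the 75th percentile, with a pseudocount or at 3-fold, and 0 without the brightest probe sets. They were 4 at 1.5-fold, of which 2 were higher in marginal zone cells, and 1 was higher with the floor at the 25th percentile. Member probe sets past 2-fold, 2 as reported, were 5 with the floor at the 25th percentile, 6 at 1.5-fold, and 1 with the floor at the 75th percentile, with a pseudocount or at 3-fold. The members' median was -0.38 with the floor at the 75th percentile, where St6gal1, Cd22 and Cmas alone were measured. It was -0.41 without the brightest probe sets, where Gne and Cmas dropped out. Medians and counts under both settings thus cover fewer genes than those reported.

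For the other sialyltransferases the median was 0.40, 0.79 and 0.50 with the floor at the 25th percentile, at the 75th percentile and absent, and -0.042 without the brightest probe sets. The supply list was at 0.0053 and the N-glycan list at -0.16 with the floor at the 75th percentile. The N-glycan list was at -0.044 with the mean or median of probe sets, the hexosamine list at 0.25 with the floor at the 25th percentile, and the signalling partners at -0.64 without the brightest probe sets. List genes past 2-fold on the marginal zone side, 3 as reported, were 8 with the floor at the 25th percentile, 6 with no floor and 7 at 1.5-fold. They were 1 with the floor at the 75th percentile, at 3-fold or without the brightest probe sets. List genes past 2-fold on the follicular side, 1 as reported, were 0 with the floor at the 75th percentile, with a pseudocount or at 3-fold. They were 2 with the floor at the 25th percentile, with no floor, or with the mean or median of probe sets, 3 without the brightest probe sets and 8 at 1.5-fold. St3gal5 turned to -0.17 without its brightest probe set. The cause of these shifts was not tested beyond what each setting changes.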

Other observations

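Further glycan genes, in 4 lists written after the members' values were seen, went different ways, and the genes named from them were chosen after their values were seen. Of 14 O-glycan enzymes, 9 were measured, with 0 higher and 1 lower by 2-fold or more in marginal zone cells and a median log2 ratio of -0.36, against -0.03 over all measured genes. C1galt1, which makes the core that most O-glycans extend, was at 51.7 in marginal zone and 128.1 in follicular B cells, 2.48-fold lower in marginal zone cells. Its other probe set was at 7.32 in marginal zone cells, under the floor, and at 13.3 in follicular cells, just above it. After the floor its log2 ratio was -0.07. C1galt1c1, the chaperone of that enzyme, was at 32.6 in marginal zone and 56.1 in follicular cells, a log2 ratio of -0.78. Galnt1, which starts O-glycans, had log2 ratios of -0.65 and -1.39, lower in marginal zone cells by both probe sets. Other genes of this list went the other way or both ways. Galnt7, at 23.95 in marginal zone and 15.2 in follicular cells, had probe sets at 0.66 and -0.44, and Galnt2 had 3 between -0.36 and 1.09. Ganglioside and glycolipid enzymes had 10 of 13 genes measured and a median log2 ratio of 0.21. Beside St3gal5, Gla, a lysosomal galactosidase, was at 102.4 in marginal zone and 56.4 in follicular cells, and both of its probe sets were higher in marginal zone cells, at 0.82 and 0.86 on the log2 scale. B4galnt1, which extends GM3, was at 62.1 in marginal zone and 96.4 in follicular cells, a log2 ratio of -0.64.

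Galectins, which bind galactose at glycan ends, had 6 of 7 genes measured, of which 1 was past 2-fold. Lgals3 was at 126.6 in marginal zone and 25.97 in follicular B cells, a 4.87-fold difference by its 1 probe set. Lgals3 is also expressed by macrophages, whose markers summed to 249.2 in marginal zone and 123.6 in follicular cells, and their part in its ratio was not tested. Lgals1 was at 20.6 in marginal zone and 35.7 in follicular cells, with its probe sets at -0.79 and 0.52 on the log2 scale, and those of Lgals8 lay at -0.59 and 0.33. Of 10 sialylated surface proteins of lymphocytes, 9 were measured, with a median log2 ratio of 0.06. Cd44 was past 2-fold higher in marginal zone cells by both probe sets, at 1.31 and 1.65 on the log2 scale. Cd24a, a small carrier protein bound by Siglec-G, was at 2225 in marginal zone and 1502 in follicular cells, with 3 probe sets between 0.53 and 0.66. Selplg, a selectin ligand, was at 32.9 in marginal zone and 50.6 in follicular cells, a log2 ratio of -0.62.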
